A study of Mus musculus with 7 samples.

Results

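The genes described here are 9 that T cells carry as inhibitory receptors or as factors of the TOX family. They are the receptors *Pdcd1*, *Ctla4*, *Lag3*, *Havcr2*, *Tigit* and *Cd160*, the ectonucleotidase *Entpd1*, and the nuclear factors *Tox* and *Tox2*. They were taken by symbol, which found 10 rows among the 38026 genes of the table, since *Ctla4* has a pair of rows. RNA came from 7 subcutaneous pancreatic ductal adenocarcinoma (PDA) tumors in C57BL/6 mice, taken 2 weeks after inoculation with no treatment. The tumors grew from cells of the KPC line 1242, which came from a mouse with a genetically driven pancreatic tumor. These cells carried Cas9 and either a guide with a scrambled sequence (sgScramble, replicates 1 to 4) or a *Krt19* guide (sgKrt19, replicates 5, 6 and 8). KRT19 is a keratin that the study examined as part of a coating on cancer cells. The labels do not say which guide was used or whether the edited cells were a pool or 1 clone, so editing and any other difference between the cell populations cannot be told apart. The guides were delivered to the cancer cells and not to the host.

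Inhibitory receptors damp the signal that a T cell gets through its antigen receptor, by recruiting phosphatases or by competing for the ligands of activating receptors. They appear when T cells are activated, and several of them stay on T cells that meet antigen for a long time in tumors. TOX is a nuclear factor of such chronically stimulated T cells, where it sustains the expression of several of these receptors.

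The libraries held 40781199 to 44972100 reads. A normalized count is the number of reads of a gene over the size factor of its library, and ± gives the SD among the tumors of 1 group. Changes are differences in log2(value + 1), sgKrt19 minus sgScramble, tested by limma across 21322 genes with Benjamini-Hochberg adjustment and a threshold of 0.05. The edited gene *Krt19* fell by 3.52 on the log2 scale (SE 0.183, limma adjusted p = 1.74e-05). Transcripts of 6 epithelial markers were detected in every tumor, with summed values of 119293 to 156794 in sgScramble and 246219 to 259984 in sgKrt19 tumors. Skeletal muscle transcripts also differed, with sums over 6 genes of 50.4 to 1970 in sgScramble tumors, where the highest was replicate 3, and of 16881 to 24041 in sgKrt19 tumors. The part of muscle RNA in the members' results was not tested, and the values without sgScramble replicate 3 are given at the end of the member descriptions.

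Of the 9 members, limma called 7 higher and 1 lower in sgKrt19 tumors, while 1 did not pass the test. Over all genes tested 34.0% were called, 17.9% as higher and 16.0% as lower. *Tox2*, among the 7, entered the test only because it reached the minimum value in the 3 sgKrt19 libraries, so its place in these counts is partly set by that filter. The other 8 members gave 6 higher, 1 lower and 1 not called. The higher members were *Pdcd1*, *Cd160*, *Lag3*, *Ctla4*, *Tox2*, *Havcr2* and *Entpd1*, in the order of their log2 fold changes, the lower one was *Tox*, and *Tigit* was not called. The median log2 fold change was 1.34 over the 8 members other than *Tox2* (1.69 with it) and 0.0072 over all genes tested. For 7 of these 8 members, and for *Tox2*, the values of the groups did not overlap, against 41.1% of all genes tested (21.7% higher and 19.3% lower). RNA was taken from whole tumors, so more cells of a type and more RNA per cell cannot be told apart in any of these values.

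**Figure D1:**
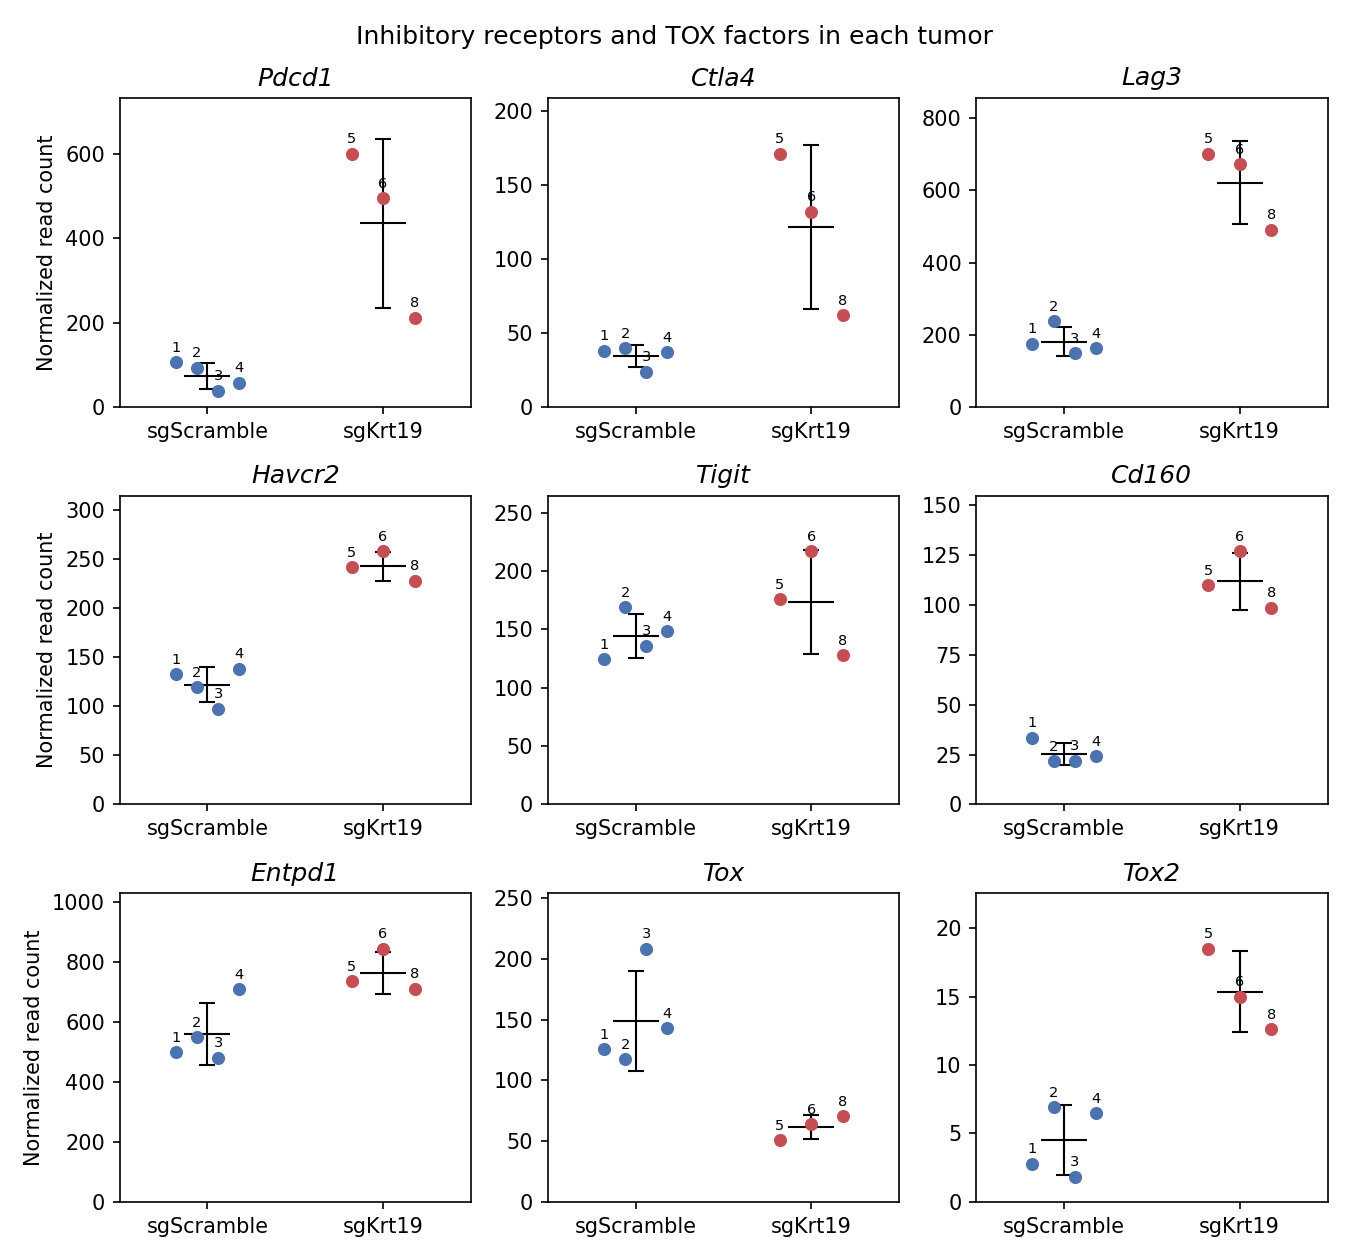
Normalized read counts of the 9 members (vertical axes, each from 0) in the 4 sgScramble tumors and the 3 sgKrt19 tumors. Points are tumors with their replicate numbers, long dashes are group means and bars are SDs. The groups overlap only for *Tigit*, and *Tox* is the only member with the sgKrt19 tumors below the sgScramble tumors.

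*Pdcd1* encodes PD-1, the receptor for PD-L1 and PD-L2. The gene (ENSMUSG00000026285.7) lies on the minus strand at chr1:94038305-94052553 (GRCm38). Its normalized counts were 106, 92.9, 38.4 and 57.5 in sgScramble replicates 1 to 4 and 601, 495 and 212 in sgKrt19 replicates 5, 6 and 8. Every sgKrt19 tumor was above every sgScramble tumor, and sgKrt19 replicate 8 was well below the other sgKrt19 tumors. The means were 73.7 ± 31.2 (SD, n = 4) and 436 ± 201 (SD, n = 3), a ratio of 5.92. The log2 fold change was 2.53 (SE 0.410, 95% interval 1.61 to 3.44, limma adjusted p = 0.00148), the largest among the members.

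*Ctla4* encodes a receptor that competes with CD28 for CD80 and CD86 and is high on regulatory T cells. The row with an identifier in the annotation (ENSMUSG00000026011.13, plus strand, chr1:60887000-60915832) had normalized counts of 38.1, 39.5, 23.7 and 37.1 in sgScramble tumors and of 171, 132 and 62.0 in sgKrt19 tumors. The groups did not overlap, and sgScramble replicate 3 and sgKrt19 replicate 8 were the lowest of their groups. The means were 34.6 ± 7.31 (SD, n = 4) and 122 ± 55.3 (SD, n = 3), with a log2 fold change of 1.69 (SE 0.345, 95% interval 0.93 to 2.46, limma adjusted p = 0.00497). The other row (ENSMUSG00000103326.4) held values between 82.4% and 97.5% of those of the first row with a change of 1.59 on the log2 scale (limma adjusted p = 0.00805). Reads may be counted at both rows, so they count as 1 member, by the first row.

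*Lag3* encodes a receptor that binds MHC class II molecules. On the minus strand at chr6:124904361-124911705 (ENSMUSG00000030124.2), it had normalized counts of 175, 238, 149 and 162 in sgScramble tumors and of 702, 672 and 491 in sgKrt19 tumors. The lowest sgKrt19 value, again replicate 8, was above the highest sgScramble value. The means were 181 ± 39.5 (SD, n = 4) and 622 ± 114 (SD, n = 3), and the log2 fold change was 1.78 (SE 0.195, 95% interval 1.35 to 2.22, limma adjusted p = 0.000191).

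*Cd160* encodes a receptor of cytotoxic T cells and natural killer (NK) cells that binds HVEM. Its normalized counts (ENSMUSG00000038304.14, minus strand, chr3:96798763-96829351) were 33.4, 21.7, 21.9 and 24.1 in sgScramble tumors and 109.8, 127 and 98.7 in sgKrt19 tumors. The sgKrt19 tumors lay close together and far above the controls. With means of 25.3 ± 5.53 (SD, n = 4) and 112 ± 14.3 (SD, n = 3), the log2 fold change was 2.12 (SE 0.236, 95% interval 1.59 to 2.64, limma adjusted p = 0.000206). *Pdzk1* on the opposite strand shares 2.57% of the exonic bases of *Cd160*. Its means were 172 and 208, and its difference of 0.27 on the log2 scale did not pass the test (limma adjusted p = 0.161).

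*Havcr2* encodes TIM-3, which T cells, dendritic cells and macrophages can express. It lies on the plus strand at chr11:46454935-46481255 (ENSMUSG00000020399.14). Normalized counts were 133, 119.6, 97.7 and 138 in sgScramble tumors and 242, 258 and 228 in sgKrt19 tumors. The groups were separate and the spread within each was small. The means of 122 ± 18.0 (SD, n = 4) and 242.5 ± 15.1 (SD, n = 3) had a ratio of 1.99 and a log2 fold change of 0.995 (SE 0.171, 95% interval 0.62 to 1.37, limma adjusted p = 0.00199).

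*Tigit* encodes a receptor of T cells and NK cells that competes with CD226 for the poliovirus receptor. Its normalized counts (ENSMUSG00000071552.5, minus strand, chr16:43648867-43664146) were 124.5, 169, 136 and 148 in sgScramble tumors and 176, 217 and 128 in sgKrt19 tumors. Replicate 8 of sgKrt19 lay within the range of the controls while replicates 5 and 6 lay above it. The means were 144 ± 19.0 (SD, n = 4) and 174 ± 44.5 (SD, n = 3). The log2 fold change of 0.24 (SE 0.207, 95% interval −0.22 to 0.70, limma adjusted p = 0.388) did not pass the test, and its interval excludes a 2-fold change in either direction.

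*Entpd1* encodes CD39, which breaks down extracellular ATP towards adenosine and is also found on regulatory T cells, macrophages and endothelium. It was the member with the highest normalized counts (ENSMUSG00000048120.16, plus strand, chr19:40612366-40741602), with 498, 548, 480 and 708 in sgScramble tumors and 734, 843 and 709.9 in sgKrt19 tumors. The groups were separate by a narrow margin, since sgScramble replicate 4 nearly reached the lowest sgKrt19 tumor. The means were 559 ± 103 (SD, n = 4) and 762 ± 71.0 (SD, n = 3), and the log2 fold change was 0.46 (SE 0.153, 95% interval 0.12 to 0.80, limma adjusted p = 0.0406). This call was lost when any 1 of 6 libraries was left out, all but sgScramble replicate 4, with limma adjusted p of 0.0636 to 0.123, and with scaling by library size only (log2 fold change 0.25, limma adjusted p = 0.295).

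*Tox* was the member that fell. Its normalized counts (ENSMUSG00000041272.11, minus strand, chr4:6686353-6991557) were 125, 118, 208 and 143 in sgScramble tumors and 50.9, 64.0 and 70.4 in sgKrt19 tumors. The highest sgKrt19 value was below the lowest control value, and sgScramble replicate 3 was the highest of all. The mean dropped from 149 ± 41.2 (SD, n = 4) to 61.7 ± 9.94 (SD, n = 3), and the log2 value fell by 1.23 (SE 0.235, 95% interval −1.75 to −0.71, limma adjusted p = 0.00354). The antisense gene *Gm11802* shares 3.42% of the exonic bases of *Tox*. Its means were 19.8 and 8.58, and its difference of −1.06 on the log2 scale did not pass the test (limma adjusted p = 0.0602).

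*Tox2*, a close relative of *Tox*, was barely detected in the controls. It lies on the plus strand at chr2:163203125-163324170 (ENSMUSG00000074607.11). The libraries held 3, 7, 2 and 7 reads in sgScramble and 16, 15 and 12 reads in sgKrt19 tumors, which are normalized counts of 2.79, 6.92, 1.83 and 6.49 against 18.5, 15.0 and 12.6. It entered the test only through the sgKrt19 libraries, because a gene had to reach 10 in 3 or more libraries. With every gene above 0 in any library tested, so that this filter played no part, the log2 fold change was 1.69 (limma adjusted p = 0.0243). With the filter the adjusted p was 0.0175 by limma (SE 0.452, 95% interval 0.68 to 2.69), and the call was lost without sgKrt19 replicate 5 (log2 fold change 1.56, limma adjusted p = 0.0648). Another TOX family gene, *Tox4*, was not called, with means of 2406 and 2272 (difference −0.08 in log2, limma adjusted p = 0.547), and *Tox3* was too low to be tested, with means of 2.09 and 1.44.

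**Figure D2:**
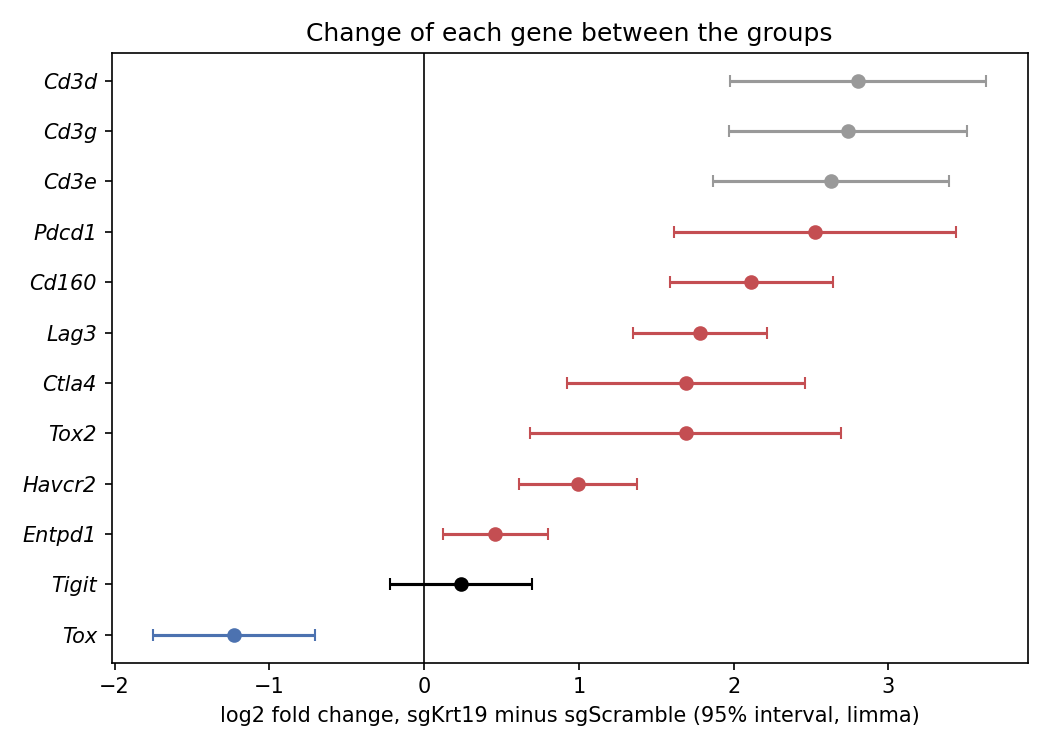
The log2 fold change (sgKrt19 minus sgScramble, horizontal axis) of the 9 members and of the CD3 genes *Cd3d*, *Cd3e* and *Cd3g*, with 95% intervals from limma. Red marks members called higher, blue lower, black not called and grey the CD3 genes. The point estimates run from −1.23 for *Tox* to 2.53 for *Pdcd1*, and the intervals of *Pdcd1*, *Cd160*, *Lag3*, *Ctla4* and *Tox2* overlap one another.

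Without sgScramble replicate 3, the control tumor with the highest sum of muscle transcripts, the log2 fold changes of *Pdcd1*, *Cd160*, *Lag3* and *Ctla4* were 2.25, 2.06, 1.70 and 1.53. Those of *Tox2* and *Havcr2* were 1.41 and 0.89 and that of *Tox* was −1.05. These 7 members kept their calls, with limma adjusted p of 0.000287 to 0.0307. *Entpd1* lost its call (log2 fold change 0.39, limma adjusted p = 0.0875) and *Tigit* remained uncalled. The remaining control tumors had muscle sums of 50.4 to 77.0, far below every sgKrt19 tumor. Leaving out replicate 3 therefore cannot tell muscle RNA and group apart. A test for a fold change above 1.5 was stricter and called only *Pdcd1*, *Cd160* and *Lag3* among the members, beside 6.27% of all genes.

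The ends of the members' ranges often fell in the same tumors. Among the sgKrt19 tumors, replicate 8 had the lowest value for 8 members and the highest for *Tox*. Among the sgScramble tumors, replicate 3 had the lowest value for 6 members and likewise the highest for *Tox*. In their groups, these same tumors had the lowest mean log2 levels of the CD3 genes, which encode the invariant chains of the T cell receptor complex. The mean log2 level of *Cd3d*, *Cd3e* and *Cd3g* was 6.78, 6.67, 5.63 and 5.86 in sgScramble tumors and 9.31, 9.27 and 8.29 in sgKrt19 tumors.

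Most T cell markers were higher in sgKrt19 tumors. Of 12 T cell markers, 11 (91.7%, beside 34.0% of all genes) were called higher and *Cd4* was not called. Their summed values were 1058 to 1789 in sgScramble and 5021 to 8777 in sgKrt19 tumors. For the CD3 genes the differences on the log2 scale were 2.63 (*Cd3e*), 2.74 (*Cd3g*) and 2.80 (*Cd3d*). Each member was therefore also expressed as its log2 level minus the mean log2 level of the CD3 genes in the same tumor. On this scale 94.6% of all genes tested were lower in sgKrt19 tumors without overlap, since the same score is subtracted from every gene, and the median difference of all genes was −2.72. A limma fit of these values called 97.3% of all genes, but the error of the score is common to all of them and its p are too small. The members were therefore compared by exact 2-sided permutation tests over the 35 ways of dividing the 7 tumors, where no p can be below 0.0571.

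Levels on this scale are not per length, so only differences between tumors are read from them. *Pdcd1* spanned the narrowest range relative to CD3. Its log2 difference from the CD3 mean was −0.04, −0.12, −0.33 and 0.01 in sgScramble tumors and −0.08, −0.31 and −0.55 in sgKrt19 tumors. The groups overlapped, with a difference of −0.20 (exact permutation p = 0.286). *Cd160* and *Tox2* also overlapped between the groups, with differences of −0.61 and −1.03 (exact permutation p = 0.171 and 0.114).

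The other 6 members were lower relative to CD3 in every sgKrt19 tumor than in any sgScramble tumor, as were 94.6% of all genes tested. Each had an exact permutation p of 0.0571, the smallest this test can give. This separation does not set them apart from other genes, since the subtracted CD3 score rose. The differences were −0.94 for *Lag3*, −1.03 for *Ctla4*, −1.73 for *Havcr2*, −2.26 for *Entpd1* and −2.48 for *Tigit*. *Tox* had the largest, at −3.95, with relative levels of 0.20, 0.22, 2.08 and 1.31 in sgScramble tumors and −3.62, −3.25 and −2.13 in sgKrt19 tumors. The groups lay apart, and the highest sgKrt19 value, in replicate 8, was more than 2 below the lowest control value. The median over the members was −1.03, against −2.72 over all genes, and *Tox* was the only member below the latter.

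**Figure D3:**
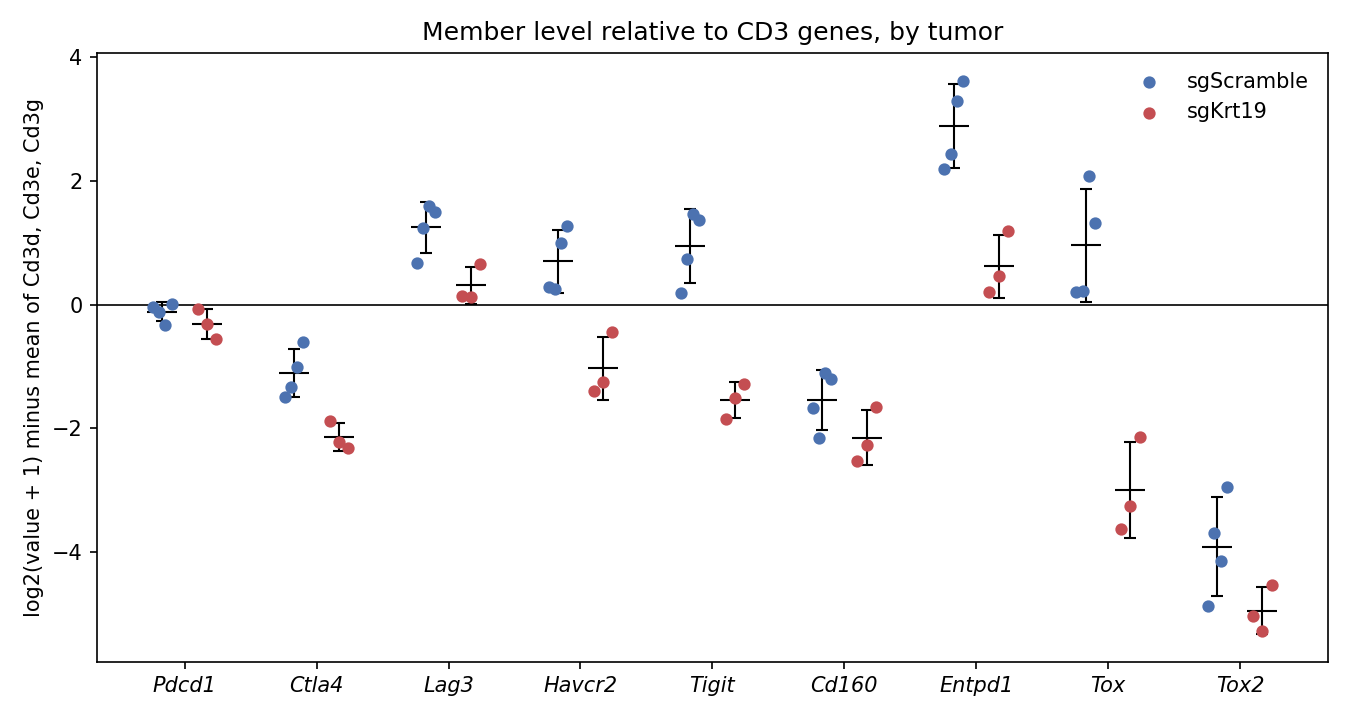
Log2(value + 1) of each member minus the mean log2(value + 1) of *Cd3d*, *Cd3e* and *Cd3g* in the same tumor (vertical axis). Points are tumors, long dashes are group means and bars are SDs over 4 sgScramble or 3 sgKrt19 tumors. The groups overlap for *Pdcd1*, *Cd160* and *Tox2* and lie apart for the other 6 members, most widely for *Tox*.

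The sign of some of these differences depended on the reference. The all-leukocyte gene *Ptprc* (CD45) had a log2 fold change of 1.19, smaller than that of the CD3 genes. Relative to *Ptprc*, the differences were 1.34 for *Pdcd1*, 0.92 for *Cd160*, 0.59 for *Lag3*, 0.50 for *Ctla4* and 0.50 for *Tox2*, all above 0, and −0.20 for *Havcr2*, −0.73 for *Entpd1*, −0.95 for *Tigit* and −2.42 for *Tox*. The difference for *Tox* was below 0 with every reference tried, which were CD3, NK cell, macrophage and *Ptprc* levels. Since *Tox* itself fell and the mean of each reference rose, this sign was fixed in advance and adds nothing to the fall.

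The order of the members was examined on reads per kilobase of exon, scaled to library depth (RPKM), which allows levels of different genes to be compared within a group. In sgScramble tumors *Tigit* came first with 3.94 ± 0.581 RPKM, followed by *Entpd1* at 2.51 ± 0.558, *Lag3* at 2.14 ± 0.453, *Havcr2* at 1.12 ± 0.179 and *Pdcd1* at 0.947 ± 0.376 (SD, n = 4). *Tox* at 0.489 ± 0.140, *Ctla4* at 0.371 ± 0.0784 and *Cd160* at 0.239 ± 0.0458 came next, with *Tox2* last at 0.0334 ± 0.0196. The values of neighbours in this order overlapped except between *Lag3* and *Havcr2* and between *Cd160* and *Tox2*. Within single tumors *Tigit* was above *Entpd1*, and *Ctla4* above *Cd160*, in 4 of 4. The other overlapping neighbours kept their order in 2 or 3 of 4.

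In sgKrt19 tumors *Lag3* came first with 6.32 ± 1.004 RPKM and *Pdcd1* next with 4.79 ± 2.02, ahead of *Tigit* at 4.07 ± 1.14 and *Entpd1* at 2.95 ± 0.423 (SD, n = 3). Then came *Havcr2* at 1.92 ± 0.202, *Ctla4* at 1.11 ± 0.449, *Cd160* at 0.914 ± 0.150, *Tox* at 0.176 ± 0.0399 and *Tox2* at 0.0965 ± 0.0122. The first 4 overlapped from neighbour to neighbour, as did *Ctla4* and *Cd160*, and the other neighbours did not. Within single tumors *Lag3* was above *Pdcd1*, and *Tigit* above *Entpd1*, in 3 of 3, and *Ctla4* was above *Cd160* in 2 of 3. By group means, *Pdcd1* thus moved from place 5 to place 2, and *Tox* from place 6 to place 8. Single tumors did not all keep this order. *Havcr2* was above *Pdcd1* in 2 of 4 sgScramble tumors and *Pdcd1* above *Tox* in 3 of 4, while *Pdcd1* was above *Tigit* in 2 of 3 sgKrt19 tumors.

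**Figure D4:**
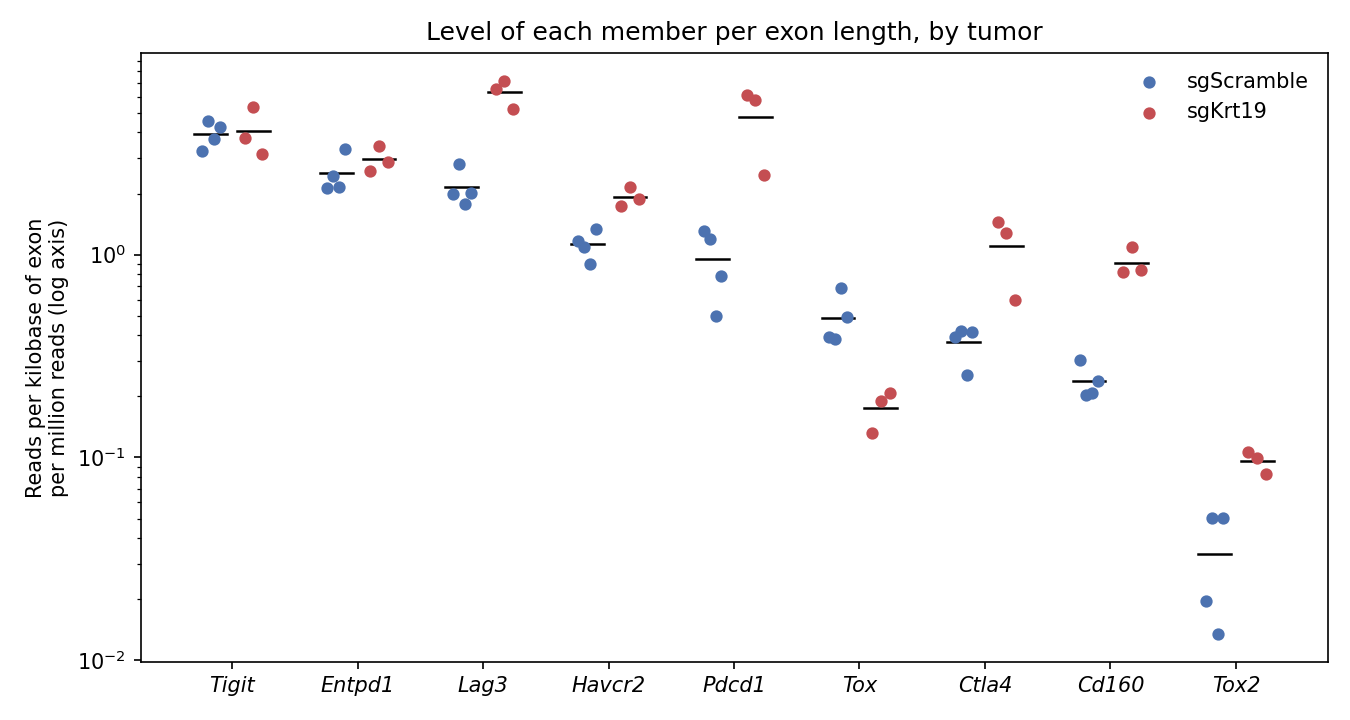
RPKM (log axis) of each member in each tumor, ordered from left to right by the sgScramble mean. Points are tumors and dashes are group means. *Tigit* is highest in sgScramble tumors at 3.94, *Lag3* is highest in sgKrt19 tumors at 6.32, and *Tox2* is lowest in both groups.

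Promoter sequences are shown for *Pdcd1*, *Ctla4* and *Havcr2*, receptors that rose and for which RefSeq (GRCm38.p6) gives a single start, so that the letters before the start can be read beside their changes of 2.53, 1.69 and 0.995. The RefSeq table matched 7 of the 9 members with 13 windows from 250 bases before to 50 bases after a start, and none is shown for *Lag3* and *Tox*. The 250 bases before the start are printed 5′ to 3′ on the strand of the gene. They span chr1:94052554-94052803 (minus) for *Pdcd1*, chr1:60908775-60909024 (plus) for *Ctla4* and chr11:46454681-46454930 (plus) for *Havcr2*. Capitals mark matches on either strand to GGAAA (the NFAT core), TGANTCA (AP-1), TGTGGT (RUNX) or CTTTGA (the TCF and LEF core).
Pdcd1: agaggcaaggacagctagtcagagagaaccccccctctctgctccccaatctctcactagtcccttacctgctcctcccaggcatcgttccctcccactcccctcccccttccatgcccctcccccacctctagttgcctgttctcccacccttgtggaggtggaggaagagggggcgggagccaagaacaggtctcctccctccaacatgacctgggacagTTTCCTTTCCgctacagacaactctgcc
Ctla4: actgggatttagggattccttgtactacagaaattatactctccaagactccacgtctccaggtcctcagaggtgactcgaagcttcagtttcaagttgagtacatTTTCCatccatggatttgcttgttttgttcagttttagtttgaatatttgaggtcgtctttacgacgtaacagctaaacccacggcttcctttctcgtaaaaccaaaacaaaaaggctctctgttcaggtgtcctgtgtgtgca
Havcr2: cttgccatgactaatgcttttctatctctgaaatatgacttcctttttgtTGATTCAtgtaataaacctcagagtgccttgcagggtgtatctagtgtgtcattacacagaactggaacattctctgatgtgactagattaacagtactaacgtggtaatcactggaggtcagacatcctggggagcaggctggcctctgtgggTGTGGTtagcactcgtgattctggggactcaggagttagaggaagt

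The *Pdcd1* stretch holds 2 adjacent matches to GGAAA on the opposite strand, the *Ctla4* stretch 1, and the *Havcr2* stretch 1 match each to TGANTCA and TGTGGT. None of these matches overlaps another. Over the 13 windows, GGAAA was found in 7 (53.8%), TGANTCA in 1 (7.69%), TGTGGT in 5 (38.5%) and CTTTGA in 4 (30.8%). Several windows belong to the same gene and some share bases. The shares of all 32851 promoters of the same length were 61.3%, 7.81%, 16.8% and 16.0%. Such matches describe letters and not sites bound by a factor.

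Genes for ligands of these receptors were looked at next, as a list of 12 that held no MHC class II gene. limma called 5 of them (41.7%) higher in sgKrt19 tumors, beside 34.0% of all genes called, 17.9% as higher. The other 7 were not called, and the list median log2 fold change was 0.53. *Ceacam1*, a partner of TIM-3, rose most, with means of 503 and 2334 and a difference of 2.25 in log2 (SE 0.251, limma adjusted p = 0.000208). *Cd274*, which encodes PD-L1, had a mean of 511 in sgScramble and 1003 in sgKrt19 tumors (log2 fold change 1.01, SE 0.218, limma adjusted p = 0.00653). The CTLA4 ligand *Cd86* and the TIM-3 ligand *Lgals9* rose by 0.74 and 0.64 on the log2 scale, and *Lgals3* by 0.47. *Pdcd1lg2*, *Cd80* and *Pvr*, with log2 fold changes of 0.57, 0.49 and 0.21, did not pass the test.

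Other receptors were counted in the same way. Of 8 further inhibitory receptors, 5 were called higher and 3 were not called, with log2 fold changes of 2.09 for *Cd5*, 2.05 for *Cd96*, 1.19 for *Btla* and 1.005 for *Cd244a*. Of 9 costimulatory receptors, 7 were called higher and 2 were not called. *Cd27*, *Cd2*, *Icos* and *Cd28* had log2 fold changes of 2.49, 1.98, 1.91 and 1.70. The shares called were 62.5% and 77.8%, beside 34.0% of all genes, and the medians of these lists were 1.06 and 1.41.

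Of 8 T cell signalling genes, which include phosphatases downstream of inhibitory receptors, 5 were called higher and *Ptpn11*, which encodes SHP-2, was lower. The list median was 0.46, and not all of these genes act in inhibitory signalling. The T cell adaptors *Sh2d1a* and *Grap2* had log2 fold changes of 1.82 and 1.54. *Ptpn22* and *Inpp5d*, a phosphatase of proteins and one of lipids, rose by 0.65 and 0.46. *Ptpn6*, which encodes SHP-1, rose by 0.46, and *Ptpn11* fell by 0.46. The share called was 75%, beside 34.0% of all genes. The list had 3 calls in place of 6 without sgScramble replicate 2, and 3 without sgKrt19 replicate 6. Of 11 genes of the ATP and adenosine pathway around *Entpd1*, 2 were called higher and 1 lower, a share of 27.3% against 34.0% of all genes. The adenosine receptor *Adora2a* rose by 1.497, *Nt5e* (CD73) by 0.95, and the ectonucleotidase *Entpd2* fell by 1.10 on the log2 scale.

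Among 16 transcription factors of T cell states, listed beside *Tox*, 5 were called higher, 2 lower and 9 not called, with a median log2 fold change of 0.14. The share called was 43.8%, beside 34.0% of all genes (17.9% as higher and 16.0% as lower). *Tbx21* (T-bet), *Batf*, *Myb* and *Eomes* had log2 fold changes of 1.81, 1.38, 1.09 and 0.88. The factors that fell with *Tox* were *Tcf7*, which encodes TCF-1, with means of 645 and 229 (difference −1.49 in log2, SE 0.129, limma adjusted p = 5.76e-05), and *Ikzf2*, which encodes Helios, with means of 516 and 209 (difference −1.27 in log2, SE 0.192, limma adjusted p = 0.00102). *Tox*, *Tcf7* and *Ikzf2* thus fell while the CD3 genes rose. Counts are not per length, so the levels of these genes cannot be ranked against those of the CD3 genes. Whether T cells or other cells of the tumor carried the transcripts of *Tox*, *Tcf7* and *Ikzf2* was not tested.

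Markers of other cells that can carry members were summed over each list. NK cell markers rose for 5 of 7 genes, with sums of 275 to 527 in sgScramble and 1908 to 2282 in sgKrt19 tumors, while the defining NK genes *Ncr1* and *Klrb1c* had log2 fold changes of 0.81 and 1.17 that did not pass the test. Of 7 regulatory T cell markers 5 were called higher and *Ikzf2* lower, and *Foxp3* had means of 522 and 498 (difference −0.07 in log2, limma adjusted p = 0.660). In sgScramble tumors *Foxp3* and *Ikzf2* (mean 516) had the highest mean counts of this list and so weighed most in its sums. These counts are not per length and cannot be ranked against those of the CD3 genes. Which cells carried the transcripts of *Foxp3* and *Ikzf2* was not tested. The regulatory list had overlapping sums of 1163 to 1533 and 1325 to 1388. Macrophage markers overlapped as well, with sums of 18553 to 25571 and 24079 to 29497, 3 of 8 genes higher and 1 lower. Dendritic cell markers had 3 of 7 genes higher and sums of 1219 to 1625 and 1690 to 2268, and endothelial markers had 4 of 6 higher and sums of 3928 to 5668 and 5963 to 7040. All 5 neutrophil markers tested were called higher, and no B cell marker of 2 tested or fibroblast marker of 6 passed the test. The shares called were 71.4% for NK cell and 85.7% for regulatory T cell markers. They were 50% for macrophage, 42.9% for dendritic cell and 66.7% for endothelial markers, beside 34.0% of all genes. No marker was at 0 in every library, and the part of any of these cells in the members' changes was not tested.

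The genes most like each member were found by Pearson's r of log2(value + 1) over the 7 libraries, among 12257 genes whose mean reached 100. These r describe points that share the group difference and their libraries. For *Pdcd1* the closest were *Cxcr6* (r = 0.996), a chemokine receptor of tissue T cells, *Mfsd14b* (0.993) and *Cd3g* (0.993). For *Havcr2* they were *Dnase1l3* (0.994), *Il2rg* (0.993), the common cytokine receptor chain, and *Acsl1* (0.991). *Tox* was followed by the sodium channel gene *Scnn1a* (0.993), *Arfgap1* (0.984) and *Cyp27a1* (0.980), of which *Scnn1a* had a log2 fold change of −1.30. The closest genes were *Mtpap*, *Usp3* and *Cst7* for *Ctla4*, *Afg3l1*, *Enpp4* and *Cx3cl1* for *Lag3*, and *Tmcc3*, *Isoc1* and *Ube2c* for *Cd160*. For *Entpd1* they were *Ptprj*, *Slc8a1* and *Was*, for *Tigit* *Sec22c*, *Nup210* and *Rnf26*, and for *Tox2* *Pgap1*, *mt-Nd2* and *Polr3b*.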

How the data were processed

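RNA of 7 tumors was measured by RNA sequencing. The labels give polyA RNA as the molecule, while the study's methods name a kit for stranded total RNA. The authors deposited a table whose values are a signal, reads per gene divided by a library size factor. Whole reads were recovered for 100% of values (tolerance 0.1 reads), and size factors recomputed as medians of ratios differed by −0.609% to 1.08%. The submitters' processing notes name the build mm10. The aligner, the counting program and its use of strand are not given in the sources used here, so values of overlapping genes are uncertain. GENCODE M21, which holds 37167 (97.74%) of the identifiers in the same version, supplied positions and exon lengths.

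Genes that reached 10 in 3 or more libraries entered limma 3.58.1 (lmFit and eBayes with a trend, R 4.3.3) on log2(value + 1), which understates changes of low genes, with the group as the only term. Alternatives were pseudocounts of 0.5 and 10, no filter, other scalings, a test for a fold change above 1.5, each library left out in turn, and edgeR 4.0.16 and DESeq2 1.42.0 on the recovered reads. The second *Ctla4* row and the exact permutation tests (scipy 1.17.1) of CD3-relative levels, in place of the limma fit of those levels, were chosen after seeing the data. The limma and edgeR fits of the group difference were tested on simulated data with the same dispersion for every gene. DESeq2, the test for a fold change above 1.5 and the fit of CD3-relative levels were not tested in this way.

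The members and lists were chosen with earlier results of these data known. Named are all members, the CD3 genes, *Krt19*, the 3 genes most like each member (mean of 100 or more, no clone or model name), and up to 4 called genes a list with the largest change together with any that moved against the list. Genes of lists that did not pass the test, *Lgals3*, *Ptpn6*, *Ptprc*, *Pdzk1* and *Gm11802* are named besides, chosen after their values were seen. A count of 3 reads corresponded to a value of 2.74 to 3.47, which covers counting error only. The study speaks of individual tumors, each in 1 flank, while the labels name no mouse, and p-values measure the spread between these tumors. Pairs of libraries within a group differed by 17.2 to 74.2 in chi-square per degree of freedom, so none was a copy. The labels give no batch.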

Additional observations from a re-analysis of the deposited data

Results flagged for a closer look

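The normalized count of *Ctla4* in sgScramble replicate 3, 23.7 against up to 39.5 in its group, lay apart from the other sgScramble tumors. Its gap to the nearest of them was 0.846 of the range of the group, above Dixon's 95% limit for 4 samples. The other *Ctla4* row gave a gap of 0.895, with a count of 21.01 in the same tumor, and is not independent of the first row. These were 2 of 19 sets of sgScramble values searched, and chance passes the limit in about 1 of 20.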

How the results depend on the processing

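The log2 fold changes of the 9 members kept their direction under every alternative, with 123 values on the same side of the threshold and 13 not. The test for a fold change above 1.5 lost *Ctla4* (1.69), *Havcr2* (0.995), *Entpd1* (0.46), *Tox* (−1.23) and *Tox2* (1.69), which left 3 members higher and 0 lower, and it called 728 genes higher and 608 lower over all genes. Scaling by library size only lost *Entpd1* (0.25), shifted the median of all genes to −0.21 and called 2187 genes higher and 5705 lower, which makes 27.7% of calls higher in place of 52.8%. Leaving out 1 library moved *Entpd1* between 0.39 and 0.58, with 6 of 7 calls lost, and *Tox2* between 1.41 and 1.91, with the call lost without sgKrt19 replicate 5. The genes lower in sgKrt19 tumors numbered 2257 to 3637, the fewest without sgScramble replicate 2. The cause of these shifts was not tested.

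With macrophage markers as the reference in place of CD3, the differences were 2.36 for *Pdcd1*, 1.53 for *Ctla4*, 1.62 for *Lag3*, 0.83 for *Havcr2*, 0.0785 for *Tigit*, 1.95 for *Cd160*, 0.30 for *Entpd1*, −1.39 for *Tox* and 1.53 for *Tox2*. With NK cell markers they were, in the same order, 0.67, −0.17, −0.0763, −0.86, −1.62, 0.26, −1.40, −3.09 and −0.17. With *Ptprc* they were 1.34, 0.50, 0.59, −0.20, −0.95, 0.92, −0.73, −2.42 and 0.50. A pseudocount of 10 moved *Tox2* to −1.76. With the macrophage reference all members but *Tox* changed sign, with *Ptprc* it was *Pdcd1*, *Ctla4*, *Lag3*, *Cd160* and *Tox2*, and with NK markers *Pdcd1* and *Cd160*. These references rose by less than CD3. No paired analysis was possible because the groups share no replicate number. With 3 against 4 samples the exact 2-sided test used here cannot pass 0.05, and *Tox2* rests on 2 to 7 reads in each control.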
